A study of Mus musculus with 92 samples.

Results

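Livers of female HET3 mice killed at 24 months were compared between a diet low in isoleucine and a control diet. HET3 mice come from a cross of several inbred strains, so the animals differ in genotype from one another. The comparison was defined by the sex, age and diet in the labels, and no measured value entered the choice. It took 16 of the 92 samples of the series: 8 livers labelled Low Isoleucine and 8 labelled Control. By the labels these animals went on their diet at 6 months of age, whereas the text on the series' design gives 13 weeks on diet, so the time on diet is uncertain here. All livers were taken after a fast of 16 hours, from mice housed at about 22 °C. The other females of the series, used below for the shared estimate of spread and for side-by-side values, were 7 livers on Low Amino Acid at 24 months and 24 livers of the same 3 diets at 6 months, 8 per diet, with diets begun at 9 weeks. The labels give each liver as a sample of its own and name no litter, cage or hour of killing. In each group of 8, 2 titles share a number and differ in the letter after it (controls 4 and 6, Low Isoleucine 2 and 3); the labels do not say what the number marks. All livers were treated as independent. The main p-values rest on a spread between livers that was estimated over all 47 female libraries, not over the 16 compared alone.

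Isoleucine is an essential branched-chain amino acid, taken from food and broken down in mitochondria. A shortage of an amino acid is sensed in cells by the kinase GCN2, which acts through the transcription factor ATF4 (the integrated stress response), and by the kinase mTORC1. The liver is also the main source of plasma proteins, among them complement, clotting factors and the acute phase proteins that hepatocytes secrete in response to IL-6 and IL-1. It makes and oxidises fatty acids, and a fast shifts the balance toward oxidation through the nuclear receptor PPARα.

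Messenger RNA was sequenced from stranded, polyA-selected libraries. Estimated counts of the 16 libraries summed to 21691550 to 27556878 in controls and 7819965 to 24458537 on Low Isoleucine, over the gene lines that could be used, which hold only part of each library. Replicate 5 of the Low Isoleucine group was the shallow one, and the next lowest of its group held 19652851. Levels are given as CPM, counts per 1000000 of that total, and as the lowest, median and highest of a group. The controls varied more than the diet group: the median SD of log2(CPM + 1) over genes was 0.298 in controls and 0.246 on Low Isoleucine. In the other female groups it ran from 0.183 to 0.235. The spread shared over all female libraries can therefore understate that between the livers compared, and with it the SE and adjusted p. The hepatocyte markers Alb, Apoa1, Trf, Ahsg, Hnf4a and Cps1 summed to 108399.6 to 190533 CPM in controls and 83547 to 154737 CPM on Low Isoleucine, and 2 of these 6 were called lower on Low Isoleucine; Ass1 and Ttr were not in the usable lines. Markers of other liver cells were present as well. Their summed level ran from 327 to 2818 CPM in controls and 155 to 1202 CPM on Low Isoleucine for Kupffer cells, and from 9.36 to 716 CPM in controls and 3.55 to 155 CPM on Low Isoleucine for neutrophils. No marker of any of the 8 cell types was at 0 in all 16 libraries. In bulk tissue, fewer cells of a type and less RNA per cell cannot be told apart.

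On Low Isoleucine 317 genes rose and 462 fell at a Benjamini-Hochberg adjusted p under 0.05, out of 12623 tested with edgeR's quasi-likelihood test in a fit of all 47 female libraries. That is 2.51% of genes in the upward and 3.66% in the downward direction, the background for every count below. The gene lists counted below were written with earlier results of these data known. The genes that fell moved further: their median log2 fold change was -0.62, against 0.44 among those that rose, and 128 fell by more than 1 log2 unit while 27 rose by more than 1. The number changed with the fit. When the 16 livers were fitted alone, only 40 genes passed, 14 higher (0.116% of 12103) and 26 lower (0.215%), and all 40 were among those of the larger fit. A gene described below as passing both fits belongs to these. Without the libraries that stood apart in acute phase, neutrophil genes or depth (controls 1, 4 and 5 and Low Isoleucine 5), 178 genes rose and 322 fell (1.40% and 2.54%); 36 of the 40 still passed.

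**Figure D1:**
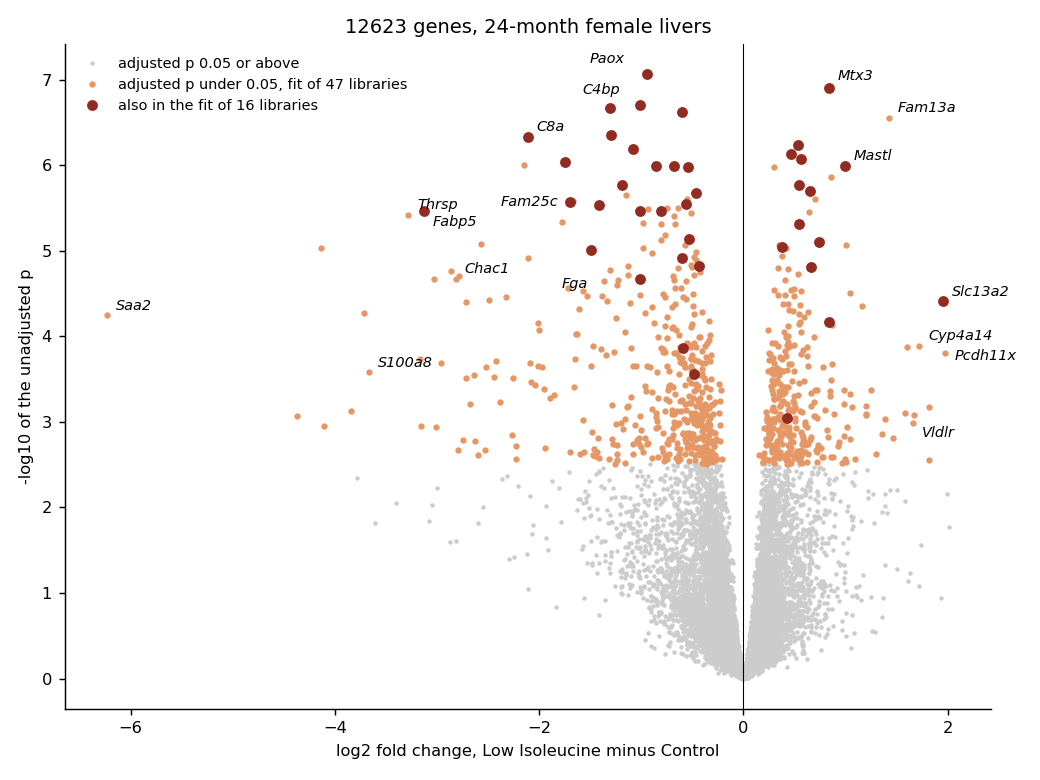
Log2 fold change (x axis, Low Isoleucine minus Control) against the negative log10 of the unadjusted p (y axis) for 12623 genes in the fit of 47 libraries; orange points passed adjusted p 0.05 there and dark red points also in the fit of the 16 livers alone. The downward side reaches further, to -6.23 for Saa2, while no gene called higher exceeds 1.98 (Pcdh11x).

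Many genes of complement, the cascade of plasma proteins that opens pores in microbes and marks them for uptake, fell on Low Isoleucine. Of 32 complement and coagulation genes tested, 15 fell and 0 rose (background 3.66% and 2.51%), with a median log2 fold change of -0.42 over all 32 against -0.02 over all genes. Positions are those of GENCODE M21 on GRCm38. C8a (chromosome 4, 104815679 to 104876398) encodes the alpha chain of C8, a part of the membrane attack complex. Its lowest, median and highest level was 102, 548 and 1173 CPM in controls and 92.4, 148 and 172 CPM on Low Isoleucine. Only control 6 lay among the diet group; the other 7 controls were all above it (log2 fold change -2.11, SE 0.36, adjusted p = 0.00070, and 0.026 in the fit of 16). C8b (chromosome 4, 104766317 to 104804548), the beta chain of the same protein and a neighbour on the chromosome, went from 40.5, 119 and 257 CPM to 32.3, 47.8 and 66.6 CPM (log2 fold change -1.49, SE 0.30, adjusted p = 0.0021, and 0.037 in the fit of 16). Control 6 was again the low one, at the level of the diet group.

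C4bp (chromosome 1, 130634773 to 130661632), the C4b-binding protein, which helps degrade C4b, fell; it stood at 346, 570.3 and 859 CPM in controls and 253, 301 and 382 CPM on Low Isoleucine (log2 fold change -1.01, SE 0.17, adjusted p = 0.00058), with 7 of 8 diet livers below every control. It also passed the fit of 16, at adjusted p = 0.032; C4bp is no member of the list and is named as one of the smallest p-values. Further members of the list that fell were Cfi, the protease that cleaves C3b and C4b (log2 fold change -0.68, SE 0.13, adjusted p = 0.0012), Hc, which encodes C5 (log2 fold change -0.99, SE 0.19, adjusted p = 0.0013), and Cpb2, an inhibitor of clot lysis (log2 fold change -0.98, SE 0.20, adjusted p = 0.0020). C9, the last component of the pore, did not pass (log2 fold change -1.02, SE 0.33, adjusted p = 0.056), nor did C3, the component on which all routes of the cascade meet (medians 24974 to 18447 CPM, log2 fold change -0.41, SE 0.15, adjusted p = 0.093). In the fit of 16, 3 members of the list passed, C8a and C8b among them. The count stayed between 13 and 18 with each of the 16 libraries left out in turn, and was 13 without controls 1, 4 and 5 and Low Isoleucine 5.

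C8a and C8b lie side by side in the genome and passed both fits, so their promoter windows are shown, from 250 bases before to 50 after the annotated start (RefSeq, GRCm38.p6). Capitals mark a match, on either strand, to any of 7 motifs searched: TTCNNNGAA (bound by STAT factors), TTGCNNAA (C/EBP), TCACNCCAC (SREBP), TGATGNAA (ATF4 with C/EBP) and the longer motifs of NF-kB, HNF1 and PPAR.
C8a promoter, chr4:104876349-104876648, minus strand: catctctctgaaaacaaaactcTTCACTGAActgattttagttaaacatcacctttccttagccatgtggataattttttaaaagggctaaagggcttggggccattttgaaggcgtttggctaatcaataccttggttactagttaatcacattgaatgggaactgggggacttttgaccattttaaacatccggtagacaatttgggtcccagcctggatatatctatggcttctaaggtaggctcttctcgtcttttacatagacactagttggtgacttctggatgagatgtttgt
C8b promoter, chr4:104766067-104766366, plus strand: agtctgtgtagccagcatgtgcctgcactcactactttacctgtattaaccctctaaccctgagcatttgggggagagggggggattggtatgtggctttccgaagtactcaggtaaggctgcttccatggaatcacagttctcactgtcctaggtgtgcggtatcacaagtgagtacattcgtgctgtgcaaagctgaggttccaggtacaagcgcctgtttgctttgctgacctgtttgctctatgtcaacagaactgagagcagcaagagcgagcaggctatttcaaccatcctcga
The window of C8a held 1 match, to the STAT motif, which 8.33% of 32544 windows of this length hold. The window of C8b held no match to these letters. Of the 25 genes of the list with a window, 5 held a STAT match and 8 a C/EBP match in any of their windows. A match is a run of letters and was not tested as a site.

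**Figure D2:**
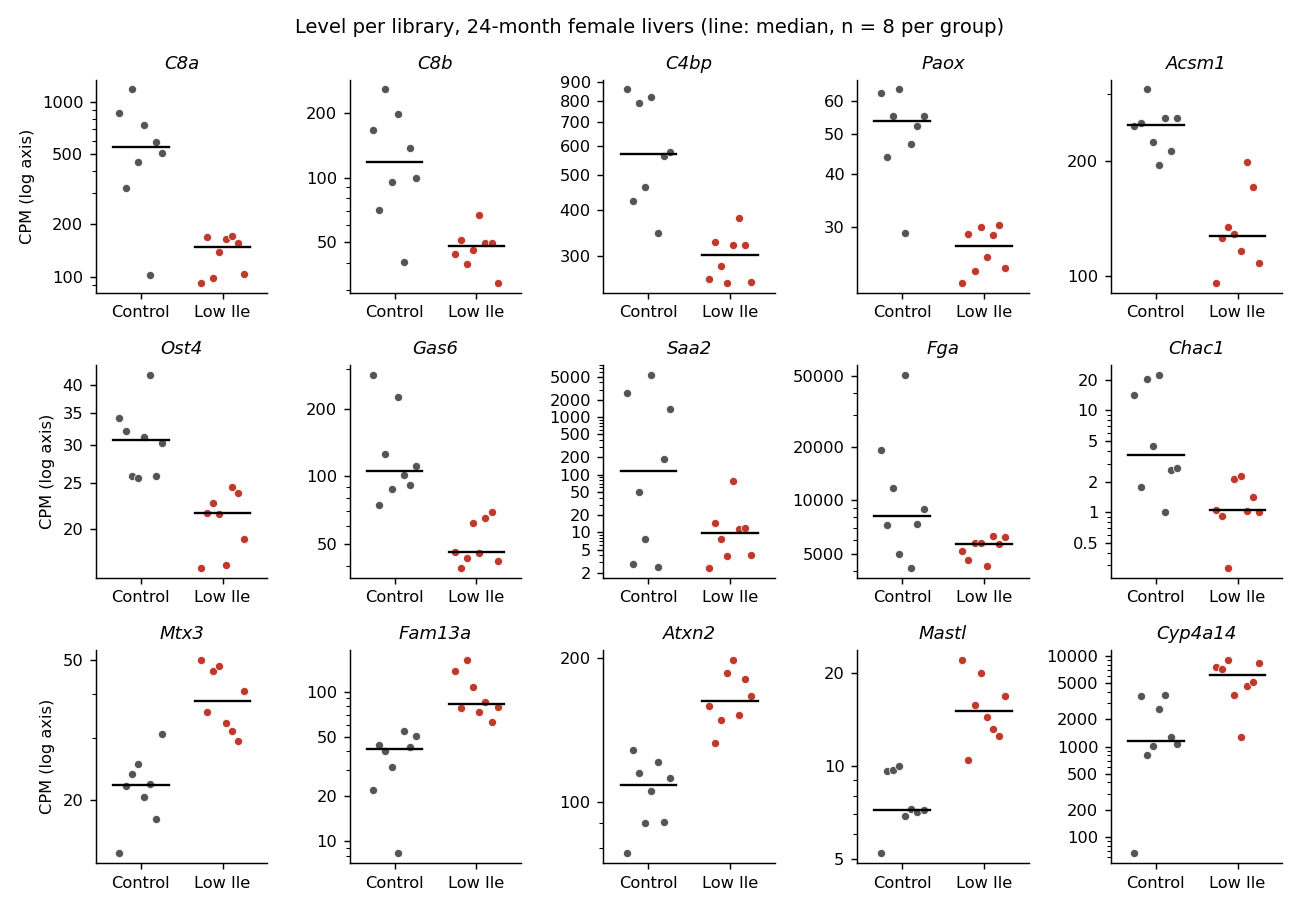
Level of 15 genes per library in CPM (log axis; scales differ between panels) for 8 Control and 8 Low Isoleucine (Low Ile) livers at 24 months, replicates 1 to 8 from left to right, with the group median as a line. Ost4, Gas6, Fam13a, Atxn2 and Mastl have no overlap between groups; in Saa2 and Fga the difference comes from controls spread over a wide range above the diet group.

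Many acute phase genes, which the liver turns up in inflammation, fell on Low Isoleucine, with a wide spread among controls. Of 26 genes tested 15 fell and 0 rose, and all 26 had fold changes below 0, with a median of -1.43. Saa2 (chromosome 7, 46751790 to 46754313), serum amyloid A2, a lipid-binding plasma protein of inflammation, had 2.48, 117 and 5454 CPM in controls and 2.39, 9.68 and 76.7 CPM on Low Isoleucine (log2 fold change -6.23, SE 1.39, adjusted p = 0.0052). Controls 1, 5 and 8 were far above the other livers and controls 2, 4 and 6 below 10 CPM, so the groups overlapped over most of the diet group's range. Saa2 has near-identical neighbours, and how reads were divided between them is uncertain. Apcs (chromosome 1, 172893961 to 172895041), serum amyloid P, went from 198, 899 and 2851 CPM to 251, 336 and 479 CPM (log2 fold change -1.72, SE 0.37, adjusted p = 0.0037). Itih4 stood at 3444, 6558 and 16089 CPM and 3045, 3901 and 4633 CPM (log2 fold change -0.96, SE 0.22, adjusted p = 0.0051). The fibrinogen chains, which form clots, moved together: Fga (chromosome 3, 83026076 to 83033627) had 4157, 8123 and 50851 CPM and 4297, 5705 and 6280.1 CPM (log2 fold change -1.39, SE 0.30, adjusted p = 0.0039), Fgb a log2 fold change of -1.25 (SE 0.28) and Fgg one of -1.34 (SE 0.29). In all 3 the highest controls were 5, 1 and 3, and controls 4 and 6 lay at or below the diet group's median.

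The calls rested to different degrees on a few libraries. No acute phase gene passed in the fit of 16. Leaving out controls 1, 4 and 5 and Low Isoleucine 5 removes controls 1 and 5, which were high in these genes. It also removes control 4, a low control, and Low Isoleucine 5, the highest diet liver. The values without that set therefore do not show what rests on the high controls alone. Without controls 1, 4 and 5 and Low Isoleucine 5, 6 of 26 passed and the median became -0.65; Saa2, Apcs and Itih4 were among those that still passed (log2 fold change -5.35, adjusted p = 0.020 for Saa2), whereas Fga did not (log2 fold change -0.49, adjusted p = 0.16). Steap4, a metalloreductase, went from 119, 314 and 4202 CPM to 75.5, 104 and 278 CPM (log2 fold change -2.86, SE 0.59, adjusted p = 0.0029) and did not pass without those libraries (log2 fold change -1.15, adjusted p = 0.16). Socs3, the feedback inhibitor of IL-6 signalling (log2 fold change -1.89, SE 0.51, adjusted p = 0.019), did not pass without control 1 or without control 5 (adjusted p up to 0.087). Il1r1, the IL-1 receptor, had 35.8, 83.5 and 1256 CPM and 46.5, 77.3 and 92.2 CPM, with its difference (log2 fold change -2.04, SE 0.53, adjusted p = 0.015) resting on control 5 (adjusted p = 0.12 without it). The mean log2(CPM + 1) over the list was 7.21, 8.75 and 10.54 in controls and 7.27, 7.61 and 8.57 on Low Isoleucine (lowest, median and highest). Controls 2, 4 and 6 lay within or below the range of the diet group, and Low Isoleucine 5 was its highest.

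The windows of Saa2, which fell most, and of a pair of fibrinogen chains that moved together are shown on the same terms.
Saa2 promoter, chr7:46751583-46751882, plus strand: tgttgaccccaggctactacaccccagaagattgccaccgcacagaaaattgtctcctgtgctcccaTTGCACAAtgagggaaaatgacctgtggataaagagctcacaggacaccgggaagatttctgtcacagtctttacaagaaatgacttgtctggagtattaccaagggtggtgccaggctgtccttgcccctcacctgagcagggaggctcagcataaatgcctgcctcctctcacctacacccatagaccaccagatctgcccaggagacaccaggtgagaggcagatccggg
Fga promoter, chr3:83025903-83026202, plus strand: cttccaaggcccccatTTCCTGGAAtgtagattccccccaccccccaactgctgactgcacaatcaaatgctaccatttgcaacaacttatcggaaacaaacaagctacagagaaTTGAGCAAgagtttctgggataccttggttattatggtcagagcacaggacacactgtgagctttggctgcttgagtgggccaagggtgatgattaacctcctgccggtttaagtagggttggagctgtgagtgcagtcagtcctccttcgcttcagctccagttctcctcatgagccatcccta
Fgb promoter, chr3:83049814-83050113, minus strand: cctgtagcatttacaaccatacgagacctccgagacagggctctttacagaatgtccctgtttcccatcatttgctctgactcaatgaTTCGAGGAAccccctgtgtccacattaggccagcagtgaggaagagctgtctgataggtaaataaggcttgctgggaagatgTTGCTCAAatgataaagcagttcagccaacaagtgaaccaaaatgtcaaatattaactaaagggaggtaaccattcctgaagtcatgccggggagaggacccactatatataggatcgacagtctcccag
Saa2 held a C/EBP match whose first base lies 183 bases before the start. Fga and Fgb each held a STAT and a C/EBP match. Of 24 acute phase genes with a window 14 (58.3%) held a C/EBP match and 7 (29.2%) a STAT match, against 10.8% and 8.33% of all windows. A gene counted if any of its windows matched, while the background counts single windows, so the shares are not the same measure. They describe the list as drawn up, not the genes that fell.

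**Figure D3:**
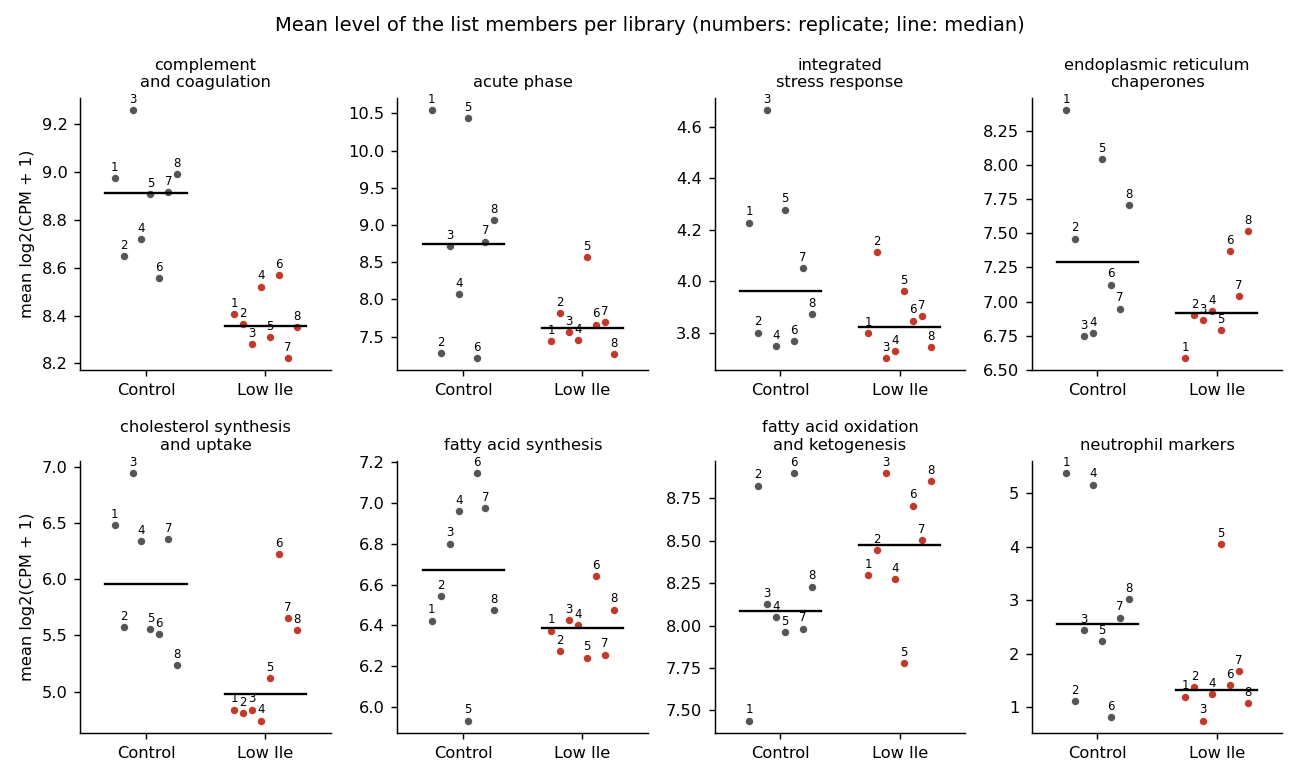
Mean log2(CPM + 1) over the tested members of 8 gene lists (y axis, scales differ) in each of the 8 Control and 8 Low Isoleucine (Low Ile) livers, labelled by replicate, with the group median as a line. In complement and coagulation the groups meet only at control 6 and Low Isoleucine 6. In the acute phase list controls 1 and 5 stand above the rest and controls 2, 4 and 6 lie within or below the range of the diet group.

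Several single enzymes and membrane genes also had small p-values. Paox (chromosome 7, 140115799 to 140137224), polyamine oxidase, had the smallest p-value of the comparison: 28.9, 53.5 and 63.8 CPM in controls and 21.995, 26.995 and 30.3 CPM on Low Isoleucine (log2 fold change -0.94, SE 0.15, adjusted p = 0.00058, and 0.026 in the fit of 16). Only control 5 lay within the diet group's range. Acsm1 (chromosome 7, 119607026 to 119662515), a mitochondrial enzyme that activates medium-chain fatty acids, went from 196, 249 and 308 CPM to 95.9, 127 and 199 CPM (log2 fold change -0.86, SE 0.15, adjusted p = 0.00070), with 7 of 8 diet livers below every control. Fabp5, a fatty acid binding protein, stood at 8.49, 33.4 and 254 CPM and 3.23, 8.01 and 13.5 CPM (log2 fold change -3.13, SE 0.59, adjusted p = 0.0012), and controls 3 and 5 were far above the others.

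Receptors and signalling genes that passed both fits included Il13ra1, a subunit of the IL-4 and IL-13 receptor (medians 82.99 to 45.2 CPM, log2 fold change -1.08, SE 0.19, adjusted p = 0.00070), and Bhlhe40, a transcriptional repressor tied to the clock (102 to 43.8 CPM, log2 fold change -1.19, SE 0.22, adjusted p = 0.00099). Tgm1, a transglutaminase, fell from 9.19, 35.04 and 65.9 CPM to 6.84, 8.13 and 19.6 CPM (log2 fold change -1.75, SE 0.31, adjusted p = 0.00070). Fam25c fell from 15.98, 29.3 and 39.02 CPM to 2.85, 7.54 and 19.1 CPM (log2 fold change -1.70, SE 0.32, adjusted p = 0.0012) and Tspan4, a tetraspanin membrane protein, from 17.4, 40.5 and 65.5 CPM to 13.5, 17.7 and 21.9 CPM (log2 fold change -1.31, SE 0.21, adjusted p = 0.00058). In Fam25c only Low Isoleucine 7 reached the lowest control, whereas control 2 lay with the diet group in Tspan4.

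In 16 genes every diet liver was below every control, and in 16 every diet liver was above every control, each 0.127% of genes tested. Of these 32, 30 also passed the fit of 47 and 17 both fits. Of the lower ones, those named by the rule or chosen here follow. Ost4 (chromosome 5, 30905885 to 30907788), a small subunit of the oligosaccharyltransferase that adds glycans to new secretory proteins, had 25.6, 30.7 and 41.995 CPM in controls and 16.6, 21.6 and 24.6 CPM on Low Isoleucine (log2 fold change -0.56, SE 0.11, adjusted p = 0.0012). Scamp5, a secretory carrier membrane protein, had 13.3, 17.3 and 22.4 CPM and 9.60, 10.97 and 13.2 CPM (log2 fold change -0.68, SE 0.12, adjusted p = 0.00070). Sys1, a Golgi membrane protein, fell from a median of 22.3 to 16.1 CPM (log2 fold change -0.47, SE 0.09, adjusted p = 0.0011). Lsm6, a subunit of the ring that binds U6 snRNA and decapping factors, had 24.1, 27.6 and 39.3 CPM and 17.8, 18.9 and 21.03 CPM (log2 fold change -0.60, SE 0.10, adjusted p = 0.00058). Gas6 (chromosome 8, 13465374 to 13494490), the secreted ligand of the TAM receptor kinases, was chosen after its values were seen as the largest fall without overlap, from 74.3, 106 and 284 CPM to 39.01, 45.9 and 69.4 CPM (log2 fold change -1.42, SE 0.26, adjusted p = 0.0012, and 0.033 in the fit of 16). The gap between the groups was small in each of these genes, and no liver crossed it.

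Genes that rose did so by less, but the groups separated as cleanly. Mtx3 (chromosome 13, 92844760 to 92858230), a metaxin of the mitochondrial outer membrane, had 14.2, 22.1 and 30.9 CPM in controls and 29.5, 38.2 and 50.1 CPM on Low Isoleucine (log2 fold change 0.84, SE 0.13, adjusted p = 0.00058), and 7 of 8 diet livers were above every control. Fam13a (chromosome 6, 58932090 to 59024549), a GTPase-activating protein whose locus is known from human fat distribution, rose most among genes without overlap, from 8.31, 41.4 and 54.8 CPM to 63.1, 82.5 and 163 CPM (log2 fold change 1.42, SE 0.24, adjusted p = 0.00058); it narrowly missed the fit of 16 (adjusted p = 0.051). Mastl (chromosome 2, 23115606 to 23156024), the Greatwall kinase of mitotic entry, had 5.21, 7.20 and 10.004 CPM and 10.4, 15.1 and 22.1 CPM (log2 fold change 0.99, SE 0.18, adjusted p = 0.00070). Atxn2 (chromosome 5, 121711337 to 121816493), ataxin-2, an RNA-binding protein, had 77.99, 109 and 128 CPM and 133, 162 and 198 CPM (log2 fold change 0.65, SE 0.12, adjusted p = 0.0011). In Mastl and Atxn2 all 8 diet livers were above all controls, with Low Isoleucine 2 the lowest of the group.

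Further genes above every control in all 8 diet livers were Sntb1, a syntrophin of the membrane skeleton (65.7 to 92.7 CPM in medians, log2 fold change 0.53, SE 0.09, adjusted p = 0.00070), the zinc finger genes Zbtb46 (log2 fold change 0.47, SE 0.08) and Zfp174 (0.56, SE 0.10), Smg6, the endonuclease of nonsense-mediated decay (0.38, SE 0.08), Cadm1, a cell adhesion molecule (0.43, SE 0.12; lost without control 1 or Low Isoleucine 3, adjusted p up to 0.059), and Ccr9, a chemokine receptor of low level here (6.48 to 9.80 CPM, log2 fold change 0.66, SE 0.14, adjusted p = 0.0027). Spred2, an inhibitor of the Ras pathway, passed both fits with 7 of 8 above every control (log2 fold change 0.54). Slc13a2, a carrier of citrate and succinate, rose most among genes that passed both fits, at a low level (0.209, 0.346 and 0.854 CPM against 0.550, 1.60 and 2.94 CPM, log2 fold change 1.95, SE 0.43, adjusted p = 0.0043). Its relative Slc13a5, the citrate carrier of liver cells, went the other way, from 1.10, 7.29 and 65.7 CPM to 0.948, 1.86 and 5.01 CPM (log2 fold change -3.03, SE 0.64, adjusted p = 0.0032), and passed the fit of 47 only (adjusted p = 0.075 in the fit of 16). Controls 1, 5 and 7 were the high ones in Slc13a5, and controls 2, 3, 4 and 6 lay within the range of the diet group.

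Of 20 genes of fatty acid synthesis 6 fell on Low Isoleucine, 0 rose and 14 did not pass (background 3.66% lower); 14 of 20 had fold changes below 0. The count was 3 without control 4, Low Isoleucine 1 or Low Isoleucine 4. Thrsp (chromosome 7, 97412938 to 97417730), Spot 14, a regulator of lipogenesis, had 5.49, 12.4 and 176 CPM in controls and 3.81, 5.90 and 7.62 CPM on Low Isoleucine (log2 fold change -3.28, SE 0.62, adjusted p = 0.0012). Controls 4, 6 and 7 were above 90 CPM and the other 5 below 16, close to or within the range of the diet group. Fasn, fatty acid synthase, had 187, 305 and 419 CPM and 115, 156 and 272 CPM (log2 fold change -0.86, SE 0.24, adjusted p = 0.023), and 5 of 8 diet livers were below every control. Srebf1, the transcription factor that drives these genes, had 124, 194 and 299 CPM and 50.3, 115 and 151 CPM (log2 fold change -0.86, SE 0.25, adjusted p = 0.029), with 6 of 8 below every control. Acly, which makes cytosolic acetyl-CoA from citrate, fell with them (log2 fold change -0.53, SE 0.14, adjusted p = 0.014), as did Mid1ip1 (-0.86, SE 0.24) and the citrate exporter Slc25a1 (-0.36, SE 0.11). These calls were close to the threshold: Fasn was lost without control 1 or without Low Isoleucine 1 or 4 (adjusted p up to 0.055), Srebf1 without control 4 or Low Isoleucine 1 or 2 (up to 0.061), Acly without control 7 (0.053), Mid1ip1 without control 4 or 6 or Low Isoleucine 4 or 8 (up to 0.064), and Slc25a1 without any one of 13 libraries. None passed the fit of 16.

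In cholesterol synthesis and uptake 7 of 24 genes fell, none rose, and 23 of 24 had fold changes below 0 (median -0.75). Fdps, farnesyl diphosphate synthase, had 27.02, 70.8 and 214 CPM in controls and 11.5, 19.03 and 85.5 CPM on Low Isoleucine (log2 fold change -1.56, SE 0.48, adjusted p = 0.042). Its call was lost with any one of 9 libraries left out. Low Isoleucine 6 was the highest of its group in Fdps, and controls 1 and 3 were the highest controls. Sqle, squalene epoxidase, did not pass (log2 fold change -1.81, SE 0.62, adjusted p = 0.073). The count of members lower ran from 0 to 14 with each library left out in turn, was 2 without controls 1, 4 and 5 and Low Isoleucine 5, and was 0 in the fit of 16. Per library the mean log2(CPM + 1) of the list was 5.24, 5.96 and 6.94 in controls and 4.74, 4.98 and 6.22 on Low Isoleucine.

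On the side of lipid use, Cyp4a14 (chromosome 4, 115486200 to 115496142), a fatty acid omega-hydroxylase and a classic target of PPARα, rose from 65.9, 1164 and 3742 CPM to 1275, 6152 and 9134 CPM (log2 fold change 1.72, SE 0.41, adjusted p = 0.0089). Control 1 was by far the lowest liver and Low Isoleucine 5 the lowest of the diet group, and 6 of 8 diet livers were above every control. Cyp4a14 belongs to a family of near-identical genes, so its counts are uncertain. Ehhadh, a peroxisomal oxidation enzyme, rose from 247, 757 and 1689 CPM to 687, 1505 and 3221 CPM (log2 fold change 1.20, SE 0.34, adjusted p = 0.024), a call lost without control 1 or without Low Isoleucine 3 or 8 (adjusted p up to 0.064). These were the 2 of 34 members of fatty acid oxidation and ketogenesis that rose, and 0 fell (background 2.51% and 3.66%); the median over the list was 0.13. Acsl1, which activates long-chain fatty acids, did not pass (log2 fold change 0.65, SE 0.23, adjusted p = 0.076), nor did Plin5 of the lipid droplet (log2 fold change 0.80, SE 0.26, adjusted p = 0.058). Vldlr, a lipoprotein receptor, rose from 4.35, 8.36 and 33.2 CPM to 19.004, 36.04 and 77.2 CPM (log2 fold change 1.66, SE 0.47, adjusted p = 0.027), lost without control 1, control 7 or Low Isoleucine 3 (up to 0.064).

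Genes of the integrated stress response, the pathway that a shortage of an amino acid can switch on, moved in both directions in these fasted livers. Of 39 members 10 fell and 2 rose, with a median of -0.24. Chac1 (chromosome 2, 119351229 to 119354381), which degrades glutathione and is induced by ATF4, had 1.001, 3.61 and 22.5 CPM in controls and 0.283, 1.04 and 2.28 CPM on Low Isoleucine (log2 fold change -2.82, SE 0.59, adjusted p = 0.0032). Controls 1, 3 and 5 were above 14 CPM and the other 5 below 5. Slc1a4, a carrier of alanine, serine and cysteine, had 6.57, 13.2 and 45.3 CPM and 3.99, 5.56 and 14.2 CPM (log2 fold change -1.37, SE 0.29, adjusted p = 0.0032), with 6 of 8 diet livers below every control. Nars, asparaginyl-tRNA synthetase, fell from a median of 106 to 87.6 CPM (log2 fold change -0.49, SE 0.11, adjusted p = 0.0039). Eif4ebp1, the translation repressor under mTORC1, fell as well (log2 fold change -0.57, SE 0.14, adjusted p = 0.011). Atf4 itself went from 61.4, 81.1 and 147 CPM to 54.4, 68.1 and 75.5 CPM (log2 fold change -0.44, SE 0.12, adjusted p = 0.021), a call lost without control 1 or without control 5 (adjusted p up to 0.062). Asns, asparagine synthetase, was called lower (log2 fold change -2.80, SE 0.86, adjusted p = 0.040), but control 3 alone was at 27.7 CPM, the other controls were below 4, and the medians were 0.664 and 0.319 CPM; the call was lost with any one of 8 libraries left out. The members that rose were Vldlr and Cth, which makes cysteine from cystathionine (log2 fold change 0.86, SE 0.27, adjusted p = 0.045, lost with any one of 11 libraries left out). The count of members lower ran from 4 to 12 with each library left out, was 5 without controls 1, 4 and 5 and Low Isoleucine 5, and was 0 in the fit of 16.

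Chac1 and Slc1a4 had the smallest p-values of this list, and each held in its promoter window a match to TGATGNAA, the composite element bound by ATF4 with C/EBP, here on the opposite strand as TTGCATCA.
Chac1 promoter, chr2:119350992-119351291, plus strand: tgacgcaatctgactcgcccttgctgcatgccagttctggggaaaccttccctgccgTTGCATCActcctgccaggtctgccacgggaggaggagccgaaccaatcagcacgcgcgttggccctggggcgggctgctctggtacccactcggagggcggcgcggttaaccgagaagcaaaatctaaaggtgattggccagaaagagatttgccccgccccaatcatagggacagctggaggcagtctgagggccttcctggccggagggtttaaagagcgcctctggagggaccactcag
Slc1a4 promoter, chr11:20332664-20332963, minus strand: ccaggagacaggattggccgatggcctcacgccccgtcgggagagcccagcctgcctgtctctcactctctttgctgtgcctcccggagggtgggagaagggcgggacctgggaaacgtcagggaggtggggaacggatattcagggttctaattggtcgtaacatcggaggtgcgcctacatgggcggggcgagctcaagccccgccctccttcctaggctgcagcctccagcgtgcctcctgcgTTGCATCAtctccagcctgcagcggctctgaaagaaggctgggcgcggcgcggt
The match starts 193 bases before the start of Chac1 and 4 bases before that of Slc1a4. Of 32 genes of the list with a window 12 (37.5%) held it, against 3.91% of all windows, and they include Asns, Atf3 and Vldlr as well. Here too a gene counted with any of its windows. The list was drawn up as genes of the ATF4 pathway, so the share says nothing about the genes that fell.

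Among genes of amino acid sensing 8.82% were called lower, and among chaperones of the endoplasmic reticulum 8.0%, against 3.66% of all genes. These shares are 3 and 2 genes. Of 34 genes of amino acid sensing 3 fell and 0 rose, with a median of 0.04; Eif2ak3, which encodes PERK, was one that fell (log2 fold change -0.53, SE 0.17, adjusted p = 0.047), a call lost with any one of 9 libraries left out. Among 25 endoplasmic reticulum chaperones and folding factors 2 fell, Sec61b of the translocon (log2 fold change -0.79, SE 0.19, adjusted p = 0.0096) and Xbp1, a transcription factor of the unfolded protein response (log2 fold change -0.56, SE 0.16, adjusted p = 0.026), while 25 of 25 had fold changes below 0 (median -0.50). Without controls 1, 4 and 5 and Low Isoleucine 5 neither Sec61b nor Xbp1 passed, and the median of that list was -0.16. Neither passed in the fit of 16. Xbp1 was also lost without control 1 or without control 5 (adjusted p up to 0.099).

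Genes of immune cells were high in a few livers. Of 15 neutrophil markers 3 fell, 0 rose and all 15 were below 0, with a median of -2.12. S100a8, a calcium-binding protein of neutrophils, had 1.31, 7.99 and 120.1 CPM in controls and 0.485, 1.42 and 14.1 CPM on Low Isoleucine (log2 fold change -3.66, SE 0.92, adjusted p = 0.012). Controls 1 and 4 were above 100 CPM, Low Isoleucine 5 was the highest of the diet group, and controls 2 and 6 were as low as that group. The number of these markers called lower ran from 1 to 11 with each library left out. The highest count came without Low Isoleucine 5. Of 26 Kupffer cell and macrophage markers 2 fell (median -0.56), and the count ran from 0, without control 1 or 7 or Low Isoleucine 1, 3, 6 or 8, to 4, without Low Isoleucine 2 or 5. Without both of those last libraries 15 Kupffer cell and 12 neutrophil markers passed. Low Isoleucine 5 was the highest of its group in the means of both lists, so leaving it out favours calls of lower genes. Low Isoleucine 2 was the highest in the interferon and cell cycle lists, and the same holds there. Such counts are no independent check. Of 24 lymphocyte markers none passed in either direction (median -0.03). Cytokines and chemokines held 6 of 24 members that fell and 0 that rose (background 3.66% and 2.51%). Their count of lower members ran from 3 to 6 with each library left out. It was 1 without controls 1, 4 and 5 and Low Isoleucine 5, and 0 in the fit of 16. Among the 6, Cxcl14 had 0.469, 3.52 and 8.96 CPM and 0, 0.405 and 1.37 CPM (log2 fold change -2.72, SE 0.60, adjusted p = 0.0043). Cxcl1, which attracts neutrophils, went from 4.35, 25.2 and 383 CPM to 2.24, 4.55 and 50.9 CPM (log2 fold change -3.01, SE 0.86, adjusted p = 0.029) and was lost with any one of 6 libraries left out. In the interferon response 2 of 29 fell and none rose; the count was 8 without Low Isoleucine 2 and 0 without Low Isoleucine 1, 3, 4 or 8 or control 7. The part that cell numbers had in the plasma protein and cytokine results was not tested. Beside them stand these values: in controls the summed CPM of 10 neutrophil markers was highest in replicate 4, while the mean log2 level of the 15-gene neutrophil list was highest in replicate 1 (5.38), as was that of the acute phase list (10.5). In the diet group both lists were highest in replicate 5.

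Signalling and clock genes moved singly. Esr1 (chromosome 10, 4611593 to 5005614), the estrogen receptor alpha, fell from 46.3, 90.2 and 143 CPM to 37.4, 55.9 and 64.5 CPM (log2 fold change -0.77, SE 0.15, adjusted p = 0.0018). In the growth hormone and IGF axis 2 of 24 fell and 1 rose. Egfr, the epidermal growth factor receptor, had 63.3, 426 and 1219 CPM and 67.99, 134 and 186 CPM (log2 fold change -2.0, SE 0.46, adjusted p = 0.0069), with controls 1, 3, 5 and 7 far above the other 4, which lay among the diet livers. Irs1, the insulin receptor substrate, rose from 24.3, 79.5 and 132 CPM to 118, 127 and 162 CPM (log2 fold change 0.72, SE 0.20, adjusted p = 0.025; lost without control 1 or without control 4, up to 0.064), and all 8 diet livers lay in a narrow band near the highest controls. Igf1 did not pass (log2 fold change -0.43, SE 0.15, adjusted p = 0.089). Of 20 clock genes 3 fell and 1 rose. Usp2, a rhythmic deubiquitinase, had 1.38, 4.75 and 33.2 CPM and 1.93, 2.90 and 4.53 CPM (log2 fold change -2.08, SE 0.53, adjusted p = 0.015), and the high livers were controls 4, 6 and 7, the same 3 as in Thrsp. The hour of killing per animal is not in the sources used here.

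Hepatocytes differ along the lobule, and of 16 genes of the pericentral zone 3 rose and 1 fell (background 2.51% and 3.66%). Without controls 1, 4 and 5 and Low Isoleucine 5, 1 rose and 2 fell, and none passed in the fit of 16. The number that rose ran from 1 to 4 with each library left out. Of 17 periportal genes 1 rose and 1 fell. Znrf3, an inhibitor of Wnt receptors, had 19.9, 24.04 and 30.5 CPM in controls and 29.3, 32.3 and 39.5 CPM on Low Isoleucine (log2 fold change 0.41, SE 0.08, adjusted p = 0.0020), and Lgr5, its partner receptor for R-spondins, had 9.47, 16.2 and 22.4 CPM and 16.5, 25.4 and 38.1 CPM (log2 fold change 0.66, SE 0.18, adjusted p = 0.017; adjusted p = 0.0504 without Low Isoleucine 3). Lect2, a secreted protein also induced by Wnt, fell from 68.5, 158 and 188 CPM to 56.1, 79.9 and 145 CPM (log2 fold change -0.80, SE 0.15, adjusted p = 0.0013), with control 5 as low as the diet livers and Low Isoleucine 7 as high as the controls. Bile acid genes went both ways, 2 up and 2 down of 25. The uptake carrier Slco1a4 rose from 39.5, 189.9 and 268 CPM to 206, 386 and 565 CPM (log2 fold change 1.05, SE 0.28, adjusted p = 0.017). Control 1 was far below the other controls in Slco1a4. Cyp7a1 of the rate-limiting step did not pass (log2 fold change -0.13, SE 0.52, adjusted p = 0.92). Without controls 1, 4 and 5 and Low Isoleucine 5, none of the 25 bile acid genes passed, nor did any in the fit of 16. Gadd45b, a stress-inducible gene, rose from 1.80, 2.96 and 6.91 CPM to 5.35, 8.75 and 11.5 CPM (log2 fold change 1.24, SE 0.33, adjusted p = 0.017), while its relative Gadd45a fell (log2 fold change -1.27, SE 0.31, adjusted p = 0.0097). Of 26 genes of p53 targets and senescence, Gadd45b was the 1 that rose, and 3 fell (background 2.51% and 3.66%). Without controls 1, 4 and 5 and Low Isoleucine 5, none of these 26 passed, nor did any in the fit of 16. Cdkn1a, the p21 inhibitor of the cell cycle used as a marker of senescence, did not pass (log2 fold change -0.32, SE 0.68, adjusted p = 0.83): control 5 was at 124 CPM, and the medians were 6.43 CPM in controls and 16.9 CPM on Low Isoleucine.

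Single enzymes of methyl transfer, redox chemistry and drug metabolism passed the test. Pemt, which methylates phosphatidylethanolamine to make phosphatidylcholine, had 244, 304 and 384 CPM in controls and 161, 229.6 and 259.7 CPM on Low Isoleucine (log2 fold change -0.48, SE 0.10, adjusted p = 0.0030), and Gamt, which methylates guanidinoacetate to creatine, had 11.996, 84.7 and 135 CPM and 19.4, 36.1 and 73.3 CPM (log2 fold change -1.14, SE 0.31, adjusted p = 0.022). They were the 2 of 25 genes of the methionine cycle and one-carbon metabolism that fell, and 1 rose. These shares were 8.0% and 4.0%, beside 3.66% and 2.51% of all genes. Pemt and Gamt kept the threshold with each library left out in turn and without controls 1, 4 and 5 and Low Isoleucine 5. Txn1, thioredoxin, fell from 64.9, 83.5 and 111 CPM to 46.1, 58.8 and 78.4 CPM (log2 fold change -0.50, SE 0.11, adjusted p = 0.0046), and of 31 glutathione and NRF2 genes 2 fell and 1 rose. In drug and steroid metabolism 2 of 28 genes rose and 2 fell. Cyp3a25, a cytochrome P450 of a family with close copies, rose from 373, 885 and 1615 CPM to 1366, 1709 and 2336 CPM (log2 fold change 0.86, SE 0.22, adjusted p = 0.014), and the lowest diet liver lay above the median control (without controls 1, 4 and 5 and Low Isoleucine 5, log2 fold change 0.57, adjusted p = 0.15). Of 22 genes known as higher in female liver 2 rose, and of 12 known as higher in male liver 2 fell. Among 10 cholangiocyte markers, 1 rose and 2 fell; Slc5a1, a glucose transporter, was lower (log2 fold change -1.10, SE 0.26, adjusted p = 0.0090).

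Some of the largest fold changes rested on 1 liver. Trpm5, a cation channel, was near 0.310 CPM in the median of either group and 33.1 CPM in control 7 (log2 fold change -3.72, SE 0.83, adjusted p = 0.0051). Without control 7 its log2 fold change was 0.016 (adjusted p = 0.99), and DESeq2 put it at 0.077. Cnbd2 rose (log2 fold change 1.60, SE 0.38, adjusted p = 0.0089), with Low Isoleucine 2 at 13.98 CPM and a group median of 1.88 CPM (0.058 without it). Others were broader: G6pc2, a glucose-6-phosphatase subunit of low level in liver, rose from 0.0392, 0.481 and 1.91 CPM to 1.25, 2.28 and 4.52 CPM (log2 fold change 1.58, SE 0.44, adjusted p = 0.024; lost without Low Isoleucine 1 or 3, up to 0.055). Elf5, an epithelial transcription factor, went from 0.495, 2.95 and 10.4 CPM to 1.49, 9.06 and 39.96 CPM (log2 fold change 1.82, SE 0.50, adjusted p = 0.022; 0.11 without Low Isoleucine 1).

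Several pathways had no gene past the threshold in either direction in edgeR's fit of 47. These were the 25 genes that break down branched-chain amino acids (median log2 fold change 0.04), the 69 nuclear genes of oxidative phosphorylation (-0.11), 34 cell cycle genes (-0.44), 12 heat shock genes (-0.08) and 22 endothelial markers (0.18). Without controls 1, 4 and 5 and Low Isoleucine 5, 1 gene passed in the first of these lists and 3 in the second. All 34 cell cycle genes had fold changes below 0, and 7 of them passed without Low Isoleucine 2 and 18 without Low Isoleucine 2 and 5. Without those 2 livers 3 endothelial markers were called higher. Low Isoleucine 2 was the highest diet liver in the mean of the cell cycle list. Low Isoleucine 5 was the lowest in that of the endothelial list. Leaving them out therefore favours these calls. Of 44 genes of the urea cycle and amino acid catabolism 1 rose, Hal, which opens the breakdown of histidine (105, 270.3 and 569 CPM against 276, 567 and 924 CPM, log2 fold change 0.98, SE 0.26, adjusted p = 0.017). It did not pass without controls 1, 4 and 5 and Low Isoleucine 5, nor in the fit of 16. Fgf21, the hormone of low protein intake, had 5.58, 14.5 and 126 CPM in controls and 8.83, 20.7 and 41.2 CPM on Low Isoleucine and did not pass (log2 fold change -0.51, SE 0.50, adjusted p = 0.60). Pck1 of gluconeogenesis (log2 fold change 0.14, SE 0.19, adjusted p = 0.72) and Ppargc1a, a coactivator of fasting genes (log2 fold change 0.23, SE 0.23, adjusted p = 0.58), did not pass either. A p above the threshold does not show that the diets were alike in these genes.

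**Figure D4:**
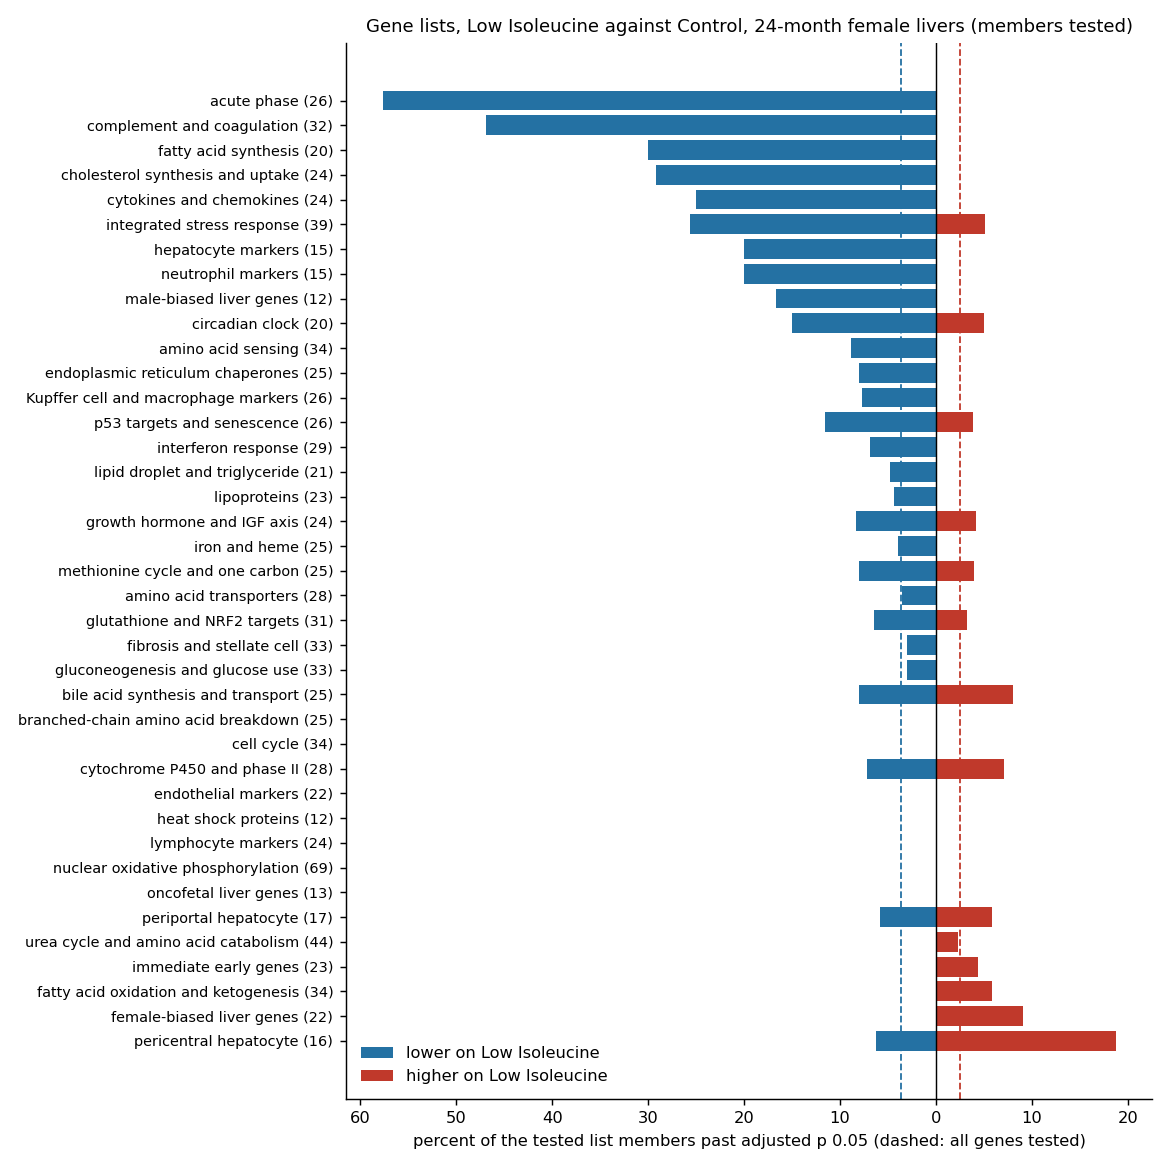
Percent of the tested members of gene lists with at least 12 genes tested (number in brackets; groups put together after the values were seen are not drawn) that passed adjusted p 0.05 in the fit of 47 libraries, lower on Low Isoleucine to the left and higher to the right; dashed lines give the shares over all genes, 3.66% and 2.51%. Of the lists drawn, acute phase and complement reach furthest to the left, and none has as large a share on the right. The lists drawn were themselves written with earlier results of these data known.

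The series holds a second restricted diet, Low Amino Acid. At 24 months the 8 Low Isoleucine livers were compared with 7 livers on Low Amino Acid: 26 genes were higher and 108 lower on Low Isoleucine (0.206% and 0.856% of genes tested). Complement genes were among them. C8a was at a median of 429 CPM on Low Amino Acid, 148 CPM on Low Isoleucine and 548 CPM in controls, and the log2 difference of Low Isoleucine from Low Amino Acid was -1.78 with adjusted p = 0.011. That difference was -0.81 with adjusted p = 0.012 for C4bp and -1.22 with adjusted p = 0.037 for C8b. Paox (medians 50.2 CPM on Low Amino Acid and 26.995 CPM on Low Isoleucine, -0.89 with adjusted p = 0.0012) and Acsm1 (-0.71 with adjusted p = 0.016) were lower on Low Isoleucine as well. Saa2 did not reach the threshold (-4.90 with adjusted p = 0.054), nor did Mtx3 (0.19 with adjusted p = 0.55), Atxn2 (0.21 with adjusted p = 0.43) or Fam13a (0.43 with adjusted p = 0.40). The number of genes fell to 45 without Low Isoleucine 1 and to 49 without Low Isoleucine 8, 80 and 81 without replicates 3 and 4, and was 76 when these 15 livers were fitted alone.

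In 6-month females, 8 against 8 other livers, the log2 fold change of Low Isoleucine against Control was -0.52 for Paox, -0.39 for C4bp, 0.41 for Mtx3, -0.88 for Bhlhe40 and -0.84 for Esr1, and 0.03 for C8a, 0.00 for C8b and 0.20 for Fga. The sign was the same as at 24 months for 641 of the 779 genes called there (82.3%) and for 63.6% of all genes. Low Isoleucine 3 of the 6-month group stood apart from its group: its mean log2(CPM + 1) was 4.21 over genes known as higher in female liver (group median 6.81) and 6.93 over genes known as higher in male liver (4.60), a list that holds C8a. Without that liver the 6-month value was -0.42 for C8a, -0.29 for C8b and 0.25 for Fga, and the same sign was found for 80.7% of called and 62.2% of all genes. The difference between the ages was tested for each gene, and none passed with edgeR (smallest adjusted p = 0.22, 1005 genes at an unadjusted p under 0.05), while DESeq2 gave 9. Among the 12 genes with the smallest p-values of that difference was Saa2, at -6.23 at 24 months and 1.13 at 6 months (difference -7.37, SE 1.77), and C8a was another (difference -2.14, SE 0.49; -1.70, SE 0.44, without the 6-month liver that stood apart). In Saa2 the 6-month value was 0.69 without that liver. Age cannot be told apart from the age at diet start and the time on diet.

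For 24-month males only the authors' deposited table could be used. By the authors' own test, 7 genes of 17757 were higher and 5 lower there at an adjusted p under 0.05. For 24-month females their table gave 693 higher and 895 lower of 17192. The male fold changes below are given without a test. Over the 774 called genes listed there, the sign in males was the same for 624 (80.6%), against 60.9% of all 12103 genes. In the authors' deposited table the male log2 fold changes were smaller for the complement genes, -0.19 for C8a and -0.24 for C8b, and -0.18 for Paox. They were -1.0 for Tgm1, 0.62 for Mtx3, 0.86 for Tmtc2, 1.49 for Cyp4a14, 1.49 for Ehhadh and -2.48 for Slc13a5 in the authors' deposited table, while Acsm1 was at 0.02. The difference between the sexes was not tested here.

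Gene length moved with the direction of change. Across 12361 protein-coding genes the Spearman correlation of the log2 fold change with exon length was 0.230; genes are not independent replicates, so this is a description. The median exon length was 7418 bases among genes that rose, 3084 among those that fell and 4549 over all. With genes cut into 3 equal bins by exon length, in the shortest bin 41 rose and 256 fell, and in the longest bin 190 rose and 81 fell. Per library, the Spearman correlation of level (relative to the mean of the 16) with length ran from -0.336 in control 6 to 0.0962 in control 5, and from 0.00080 in replicate 6 to 0.182 in replicate 5 on Low Isoleucine, so the groups overlapped. RNA quality values per library are not in the sources used here, and the part of length in the results was not tested.

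**Figure D5:**
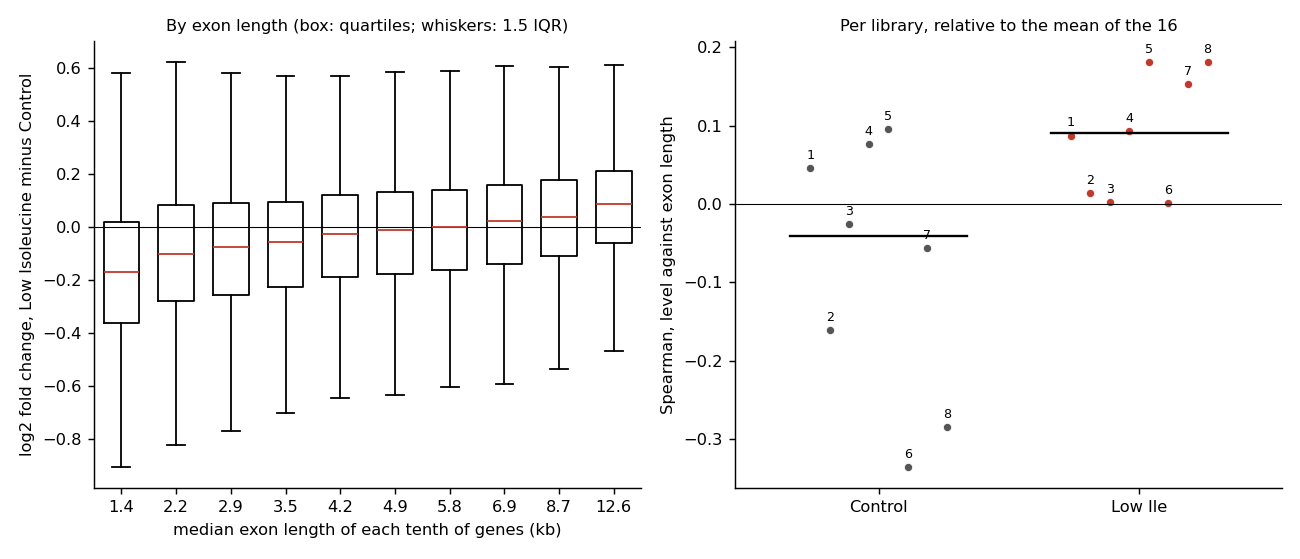
Left, log2 fold change (Low Isoleucine minus Control) of protein-coding genes in 10 bins of exon length, labelled by median length in kb (box, quartiles; line, median; whiskers, 1.5 times the interquartile range). Right, the Spearman correlation of level with exon length in each library, labelled by replicate; controls 2, 6 and 8 lie lowest and the diet livers lie at or above 0.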

How the data were processed

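RNA from snap-frozen liver was sequenced from stranded polyA libraries on 2 lanes that were merged, per the labels' protocols. The gene table holds estimated counts (RSEM, per the file's name) that the authors deposited without normalization; 17.6% of female values were not whole and all were rounded. The submitters' processing notes name edgeR, limma, R 3.4.3 and GRCm38.p5 without roles; no source names an aligner. Only 17275 of 51912 gene lines have all columns filled, and there the male values do not belong to the gene named, so the 47 female columns were used, 45 male columns were not, and totals and CPM are over these lines. For males, log2 fold changes of the authors' deposited table were copied; its p-values and the F statistic, a score the authors deposited, were read and not used for calls. As a check, log2 fold changes computed here correlated at r = 0.909 with those the authors deposited for the same females, over 11952 genes.

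Counts of the 47 libraries were filtered (filterByExpr on the 6 female groups), scaled (TMM) and fitted with edgeR 4.0.16 (robust quasi-likelihood, 1 mean per group); p-values were adjusted by Benjamini-Hochberg over all genes tested at a threshold of 0.05, and the SE is the fold change divided by the root of the F statistic. Adjusted p-values in the text are from this fit unless the fit of 16 livers is named. Limma 3.58.1 and DESeq2 1.42.0 served as alternatives (R 4.3.3). Counts for this comparison were also simulated, with a shift put into 200 genes. For shifts of 0.5, 1 and 2 log2 units, 47.8%, 80% and 97.1% were found by the fit of 47 (12571 genes). The fit of 16 (12103 genes) found 40.3%, 75.4% and 92.6%. False calls numbered 11 in the fit of 47 and 15 in the fit of 16. The 2 fits were thus close on simulated counts, but gave 779 and 40 genes on the real ones. These shares therefore do not show how either fit performs on the real livers, whose controls varied most. Plots and per-library list values use log2(CPM + 1).

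The members, the 43 gene lists and the tests were chosen with earlier results of these data known. Named genes are those past both fits (up to 15 per direction by smallest p), the 12 largest changes per direction with a mean of at least 1 CPM, up to 6 called and 3 uncalled members per list and direction, 10 genes named whatever their values, and the 12 smallest p-values of the age difference, leaving out predicted genes from all but the lists; some genes the rule names are not reported here. Replicates were numbered in accession order. No pair of libraries was as alike as copies of 1 library (highest Pearson correlation of log2 values 0.990). Identifiers were matched to GENCODE M21, 17250 of 17275. Promoter windows come from RefSeq (GRCm38.p6), and entries without a window were not looked for elsewhere.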

Additional observations from a re-analysis of the deposited data

Results flagged for a closer look

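Within each group of 8 livers, the gap of the highest or lowest liver to its neighbour was divided by the group's range, for the library total, the gene lists in the plot of lists by library and every gene named. A share above 0.526 (Dixon's criterion) marks a liver far from the rest, and chance alone marks about 1 in 20 groups. It was passed in 21 of 248 groups; the share and the side are given in brackets. For control 1 this held for Cyp4a14 (0.622, lowest), Pck1 (0.690, lowest) and Slco1a4 (0.677, lowest). In control 3 this held for Ahsg (0.574, highest) and Asns (0.550, highest). For control 5 this held for Igf1 (0.529, highest), Lect2 (0.608, lowest) and Paox (0.529, lowest). In control 7 this held for Trpm5 (0.908, highest). For Low Isoleucine 2 this held for Srebf1 (0.587, lowest). In Low Isoleucine 5 this held for the library total (0.711, lowest), the mean of the acute phase list (0.579, highest), the mean of the neutrophil markers list (0.718, highest), Asns (0.606, highest), Cyp4a14 (0.544, lowest), Il6st (0.577, lowest), S100a8 (0.658, highest), Slc13a5 (0.623, highest) and Sys1 (0.630, lowest). For Low Isoleucine 7 this held for Slc39a14 (0.551, highest). In Low Isoleucine 8 this held for Slc5a1 (0.596, highest). Low Isoleucine 5, the shallow library, appears in 9 of these and is the highest of its group in both acute phase and neutrophil genes. In Asns the high liver among controls, at 27.7 CPM, carries the call, and so does control 7 in Trpm5.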

How the results depend on the processing

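Against 317 higher and 462 lower, the 16 livers alone gave 14 and 26, the 23 females of 24 months 85 and 102, voom with 1 variance weight per group 58 and 77, and the same on the 16 livers alone, an alternative chosen after seeing the data, 13 and 17. Voom with sample quality weights gave 262 and 290, DESeq2 384 and 624, RLE size factors 291 and 499 and no filter on low counts 243 and 397. Leaving out controls 1, 4 and 5 and Low Isoleucine 5 gave 178 and 322, Low Isoleucine 2 and 5 469 and 970, and single libraries 185 to 420 higher and 301 to 564 lower; control 1 gave the fewest of each, and Low Isoleucine 1 and 8 also took the higher count more than 1.5 times down (209 and 206), as Low Isoleucine 1 did the lower (305). Genes that differed from Low Amino Acid numbered 134, 76 with these 15 livers alone, 133 with voom and 45 to 151 with single Low Isoleucine libraries left out. No gene passed the difference between ages in edgeR or voom under any setting tried; DESeq2, added after seeing the data, gave 9. Genes without overlap numbered 32, 31 with RLE factors and 42 without Low Isoleucine 5. Of 115 named genes 102 passed, and 77 kept the threshold with each library left out; Trpm5 alone changed sign, to 0.016 without control 7 and 0.077 with DESeq2, and was -4.41 without controls 1, 4 and 5 and Low Isoleucine 5. The cause of these shifts was not tested.

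No paired analysis was possible because the replicate numbers were given in accession order and pair no animals. Low Isoleucine 5, at 7819965 counts, is the least precise library, and genes near or below 1 CPM rest on few reads there. The usable gene lines leave out part of the transcriptome, so a gene not named was not necessarily measured.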

Other observations

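Another 6 groups of genes were put together after the values were seen, so their counts, to be read beside the 3.66% of all genes that fell and 2.51% that rose, describe these livers and carry no test. The first 3 groups belong to the making of secretory proteins. Of 12 subunits of the oligosaccharyltransferase 8 fell, among them Ddost (log2 fold change -0.56, SE 0.12, adjusted p = 0.0041) and Krtcap2 (log2 fold change -0.57, SE 0.12, adjusted p = 0.0032); of 22 genes of the translocon, signal recognition particle and signal peptidase 6 fell, among them Ssr2 (log2 fold change -0.41, SE 0.10, adjusted p = 0.0095); and of 37 genes of COPI and COPII vesicles 9 fell, among them Sar1a (log2 fold change -0.38, SE 0.09, adjusted p = 0.011). None of the 3 groups held a gene that rose. Controls 1 and 5, the livers highest in acute phase genes, were also the highest 2 of 16 in the mean level of the first 2 groups. Without controls 1, 4 and 5 and Low Isoleucine 5, 2, 0 and 1 members passed, and 1, 0 and 0 in the fit of 16. With single libraries left out the counts ran from 4 to 9, 3 to 11 and 3 to 10; each lowest count was reached without control 1.

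Of 31 receptors and transducers of IL-6, IL-1 and TNF 7 fell, 4 without control 1 or control 5, 0 without controls 1, 4 and 5 and Low Isoleucine 5, and 0 in the fit of 16. Among them Stat3, the factor activated by IL-6, had 123, 277 and 568 CPM in controls and 141, 172 and 222 CPM on Low Isoleucine (log2 fold change -0.76, SE 0.18, adjusted p = 0.0064), Il6st, the shared receptor chain gp130, had a log2 fold change of -0.46 (SE 0.12, adjusted p = 0.016, and 0.062 without control 1), and Tnfrsf1a one of -0.52 (SE 0.13, adjusted p = 0.012). Of 20 zinc transporters and metallothioneins 5 fell, led in size by Slc39a14, a zinc and iron importer of the acute phase (309, 500.0 and 1869 CPM against 266, 302 and 533 CPM, log2 fold change -1.16, SE 0.27, adjusted p = 0.0071); 2 passed without those livers and 0 in the fit of 16. In the other direction 17 of 47 histone methyltransferases, acetyltransferases and remodellers rose and 0 fell, each by little, such as Arid2 (log2 fold change 0.30, SE 0.05, adjusted p = 0.00070), Crebbp (log2 fold change 0.24, SE 0.06, adjusted p = 0.0069) and Kmt2c (log2 fold change 0.30, SE 0.06, adjusted p = 0.0037). The count was 8 without controls 1, 4 and 5 and Low Isoleucine 5, 9 without Low Isoleucine 5 alone, 11 without control 6 or Low Isoleucine 8, and 0 in the fit of 16. These are long genes, with a median exon length of 13786 bases, and the direction of change moved with length over all genes; the part of length was not tested.

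Single genes with small p-values outside the rule for names were Nampt, the rate-limiting enzyme of NAD salvage (74.8, 179 and 319 CPM in controls and 66.2, 80.8 and 106 CPM on Low Isoleucine, log2 fold change -1.15, SE 0.21, adjusted p = 0.0011), Slc13a3, a dicarboxylate carrier (36.2, 138 and 161 CPM and 13.9, 29.9 and 75.4 CPM, log2 fold change -1.66, SE 0.31, adjusted p = 0.0012), and Aacs, which activates acetoacetate for lipid synthesis (6.40, 25.3 and 40.3 CPM and 4.07, 5.35 and 12.8 CPM, log2 fold change -1.77, SE 0.34, adjusted p = 0.0013). In the fit of the 16 livers alone their adjusted p-values were 0.059, 0.0504 and 0.0504.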
